A study of Mus musculus with 16 samples.

Results

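The genes described here encode enzymes that add or remove acetyl and methyl groups on histones, the proteins around which DNA is wound. They were taken by name: every symbol in the count table that begins with Kdm, Hdac, Sirt, Setd, Prmt, Kat, Suv39h or Suv420h followed by a digit. This gave 60 of the 34573 genes, namely 16 Kdm, 11 Hdac, 9 Setd, 8 Prmt, 7 Sirt, 5 Kat and 4 Suv genes. The table uses older symbols for some of them, so Setd8, Suv420h1, Suv420h2 and Prmt10 are the genes now called Kmt5a, Kmt5b, Kmt5c and Prmt9. Family genes that the table lists under other older names (Myst2, Myst3, Myst4, Jhdm1d and Jmjd5) do not match the rule and are described separately below.

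Acetyltransferases (Kat) place acetyl groups on histone lysines, and deacetylases (Hdac, and the NAD-dependent Sirt enzymes) take them off. Lysine methyltransferases (Setd, Suv39h, Suv420h) and arginine methyltransferases (Prmt) place methyl groups, and lysine demethylases (Kdm) remove them. Which lysine carries the methyl group matters: methylation of lysine 4 or 36 of histone H3 goes with active genes, methylation of lysine 9 or 27 of H3 and lysine 20 of H4 with silent or compacted chromatin. Naive CD8 T cells are small resting cells that, once stimulated through the T cell receptor, enlarge, divide and rearrange their chromatin on the way to effector states.

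RNA-seq came from CD8+ T cells of C57BL/6 mice in 4 states, to follow gene expression while these cells are activated in culture. Tn cells are naive cells of the spleen at day 0, sorted as CD8+, CD44- and CD62L+. Teff1 (day 2) and Teff2 (day 5) cells are CD8+, PD-1+ and TIM-3-, and Tex cells (day 5) are CD8+, PD-1+ and TIM-3+. The 3 activated states all received antibodies to CD3e and CD28, each at 10 µg/ml, and then IL-2 at 300 U/ml, whereas Tn cells received none of these. Tex is therefore defined by TIM-3 on cells cultured for 5 days and not by a chronic infection or tumour. Each state has 3 libraries of 0.2 M cells each. The labels give no animal or culture of origin, so p-values measure the spread between these libraries, which may be technical. The 4 Hi-C samples of the series were not analysed here.

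Libraries held 14.7 to 21.2 M counts, and levels are given in CPM, which are counts scaled to the TMM-adjusted size of the library. A count of 0 allowed up to 0.143 to 0.204 CPM in a library, the level of 3 counts, which covers counting error only. Transcripts of the sorted proteins went with the labels: Havcr2, which encodes TIM-3, had 10.9 to 38.4 CPM in Tex and 0.258 to 0.612 CPM in Teff2 (Tn 0.409 to 2.45 CPM), and Pdcd1, which encodes PD-1, had 3 to 6.93 CPM in Tn and 72.2 CPM or more in each activated library. CD8 T cell markers were present in all libraries, but the Tn libraries, replicates 1 and 3 above all, also held markers of other cells: the summed level of 8 B cell markers was 554, 44.6 and 1110 CPM in Tn replicates 1, 2 and 3 and at most 9.64 CPM in any activated library, with all 8 detected in Tn. Sums for NK cells (7 markers; 89.7, 12 and 167 CPM) and for macrophages and monocytes (7 markers; 261, 62.9 and 132 CPM) were also lowest in Tn replicate 2. The sum of 5 erythroid markers was 156, 147 and 69.2 CPM in Tn, lowest in replicate 3, and at most 7.2 CPM in any activated library. The part of these cells in the results was not tested. Replicate 1 of Teff2 and of Tex stood apart by a summed level of 19 G2 and M phase genes of 1150 and 1480 CPM, against 4430 to 5180 CPM in the other day 5 libraries. Because whole sorted populations were sequenced, fewer cells of a type and less RNA per cell cannot be told apart.

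Of the 60 genes, 57 passed the filter on low counts and were tested among 14332 genes. Kdm5d and Prmt8 did not pass, nor did Kat2b-ps, a pseudogene by its name, with 1 count in all. Kdm5d, the Y-linked H3K4 demethylase, had 0 counts in all 12 libraries, and its X-linked counterpart Kdm5c had 185 to 230 CPM. Prmt8, a neuronal relative of Prmt1, had 30 counts in all, with 0 in every Tn and Teff1 library and up to 0.538 CPM in Teff2. Together the 60 genes took 0.519% to 0.552% of all counts in naive libraries. The share was 0.46% to 0.509% at day 2, and at day 5 it was 0.439% to 0.494% for Teff2 cells and 0.423% to 0.476% for Tex cells.

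The comparison of Teff1 with Tn asks what 2 days of stimulation change in resting naive cells. In Teff1, 11 of the 57 tested enzyme genes were higher and 17 were lower than in Tn (edgeR quasi-likelihood test, Benjamini-Hochberg adjusted p under 0.05). Over all tested genes 24.5% were called higher and 24.5% lower, and 28 of 57 against 48.9% were called in all. Their median log2 fold change of -0.06 equalled that of all genes. The libraries of both states did not overlap for 15 genes that were higher and 19 that were lower, against 29.6% and 31.9% of all genes. Of 7 tested Prmt genes 3 rose and 0 fell, with a median log2 fold change of 0.32. Of 15 Kdm genes 2 rose and 6 fell, with a median of -0.36. Among 11 Hdac genes 3 rose and 4 fell, among 9 Setd genes 1 rose and 3 fell, among 4 Suv genes 2 rose and 1 fell, among 7 Sirt genes 0 rose and 2 fell, and among 4 Kat genes 0 rose and 1 fell. Under upper-quartile scaling the Prmt count was 3 and 1, the Hdac count 0 and 4 and the Kdm count 2 and 7. These families are small, and no difference between families was tested.

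**Figure D1:**
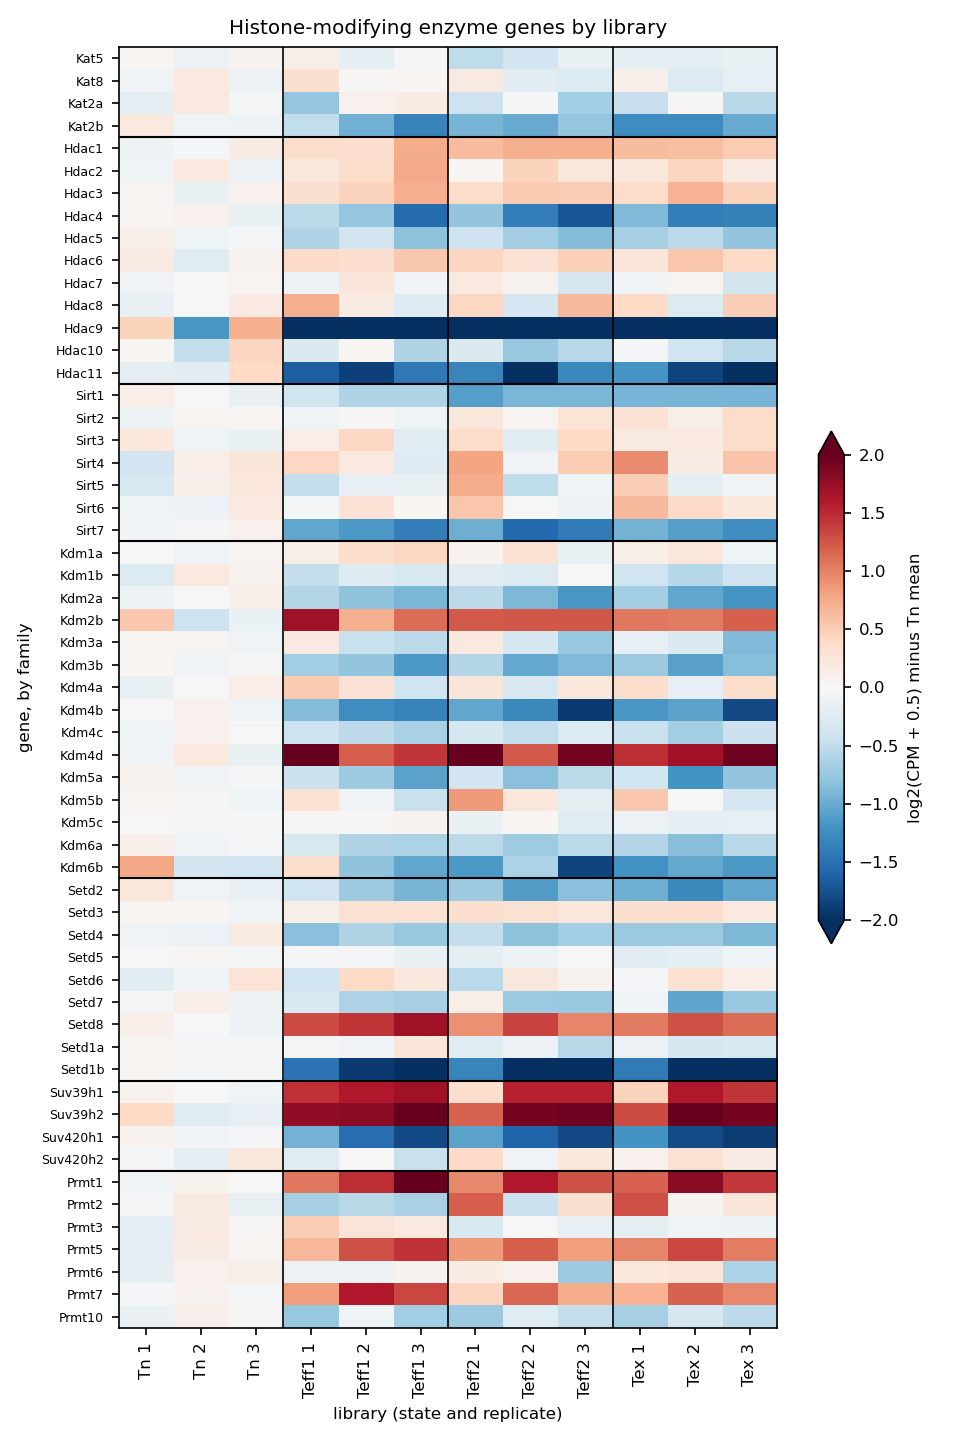
Level of 57 tested enzyme genes (rows, grouped by family) in each of 12 libraries (columns), as log2(CPM + 0.5) minus the Tn mean of that gene. Red rows such as Prmt1, Setd8, Suv39h1 and Suv39h2 and blue rows such as Setd1b, Suv420h1 and Sirt7 keep their colour through Teff1, Teff2 and Tex; the scale is limited at 2 and -2.

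The arginine methyltransferases held 3 of the 11 rises. Prmt1, which makes most asymmetric dimethylarginine (chromosome 7, 44976755 to 44986420, GRCm38.p6), had 84.5, 93 and 87.3 CPM in Tn, against 183, 246 and 406 CPM in Teff1. Every Teff1 library lay above every Tn library. The log2 fold change was 1.66 ± 0.28 (SE; edgeR, Benjamini-Hochberg adjusted p = 0.000637), or 3.15-fold, with n = 3 libraries a state. Prmt5, the main enzyme of symmetric dimethylarginine (chromosome 14, 54507182 to 54517470), had 63.6, 79.8 and 74.1 CPM in Tn, against 115, 176 and 198 CPM in Teff1. It rose 2.24-fold, by 1.17 ± 0.21 on the log2 scale (SE; edgeR adjusted p = 0.000863). Prmt7, which monomethylates arginine (chromosome 8, 106211054 to 106251694), went from 38, 40.5 and 37.8 CPM to 69.8, 119 and 98.9 CPM. Its rise was 2.47-fold (log2 1.3 ± 0.23, SE; edgeR adjusted p = 0.000806), and for all 3 genes the states did not overlap. The summed level of the Prmt genes was 301 to 352 CPM in Tn, against 495 to 823 CPM in Teff1.

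The other Prmt genes did not pass the test. Prmt3, which methylates a ribosomal protein, had a mean of 49.4 ± 5.72 CPM in Tn, against 61.7 ± 7.01 CPM in Teff1 (SD, n = 3; edgeR adjusted p = 0.0965). Prmt2 had 13.9 ± 1.68 CPM in Tn, against 8.8 ± 0.41 CPM in Teff1 (edgeR adjusted p = 0.19), with all Teff1 libraries below all Tn libraries. Prmt6, an H3R2 methyltransferase, and Prmt10 had log2 fold changes of -0.06 and -0.49 and overlapping states. Prmt1 and Prmt8 are close relatives, but Prmt8 has no count in Teff1.

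Among the enzymes of H3 lysine 9 and H4 lysine 20, Suv39h1, Suv39h2 and Setd8 rose and Suv420h1 fell. Suv39h1, which trimethylates H3 lysine 9 (chromosome X, 8061171 to 8074760), had 30.2, 28.9 and 27.6 CPM in Tn, against 80.3, 88.9 and 94.6 CPM in Teff1. It rose 3.04-fold (log2 1.6 ± 0.33, SE; edgeR adjusted p = 0.00194). Its paralog Suv39h2 (chromosome 2, 3455815 to 3474986) went from 5.5, 3.34 and 3.55 CPM to 15, 15.4 and 18.9 CPM, a 3.97-fold rise (log2 1.99 ± 0.31, SE; edgeR adjusted p = 0.000358). Suv39h2 overlaps Dclre1c over 18397 bases and the counting is not stated to use strand, so its reads may include those of its neighbour. Setd8, which monomethylates H4 lysine 20 (chromosome 5, 124439930 to 124462311), had 68.4, 64.2 and 59.8 CPM in Tn, against 159, 173 and 209 CPM in Teff1. It rose 2.81-fold (log2 1.49 ± 0.16, SE; edgeR adjusted p = 4.2e-05).

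Suv420h1, which carries H4 lysine 20 on to the di- and trimethylated forms (chromosome 19, 3767362 to 3818303), fell. It had 201, 186 and 190 CPM in Tn, against 99.5, 66.2 and 54.9 CPM in Teff1, 2.61-fold lower (log2 -1.39 ± 0.27, SE; edgeR adjusted p = 0.00135). Its paralog Suv420h2 had 61.7, 55.7 and 74.8 CPM in Tn, against 53.6, 64 and 46.6 CPM in Teff1, and these ranges overlapped (log2 -0.23 ± 0.17, SE; edgeR adjusted p = 0.299).

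Promoters of 4 of the genes that rose are shown because they hold the CCAAT box, the motif bound by the NF-Y factor. They are the 120 bases before the most upstream start listed by RefSeq (GRCm38.p6), written 5′ to 3′ on the strand of the gene, with each CCAAT box of either strand (CCAAT or ATTGG) in capitals. Suv39h1 lies on the minus strand (chrX:8074761-8074880), Setd8 on the plus strand (chr5:124439810-124439929), and Prmt1 (chr7:44986421-44986540) and Prmt5 (chr14:54517471-54517590) on the minus strand.
Suv39h1: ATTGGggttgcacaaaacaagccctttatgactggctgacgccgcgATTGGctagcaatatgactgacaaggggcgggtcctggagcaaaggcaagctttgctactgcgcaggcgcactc
Setd8: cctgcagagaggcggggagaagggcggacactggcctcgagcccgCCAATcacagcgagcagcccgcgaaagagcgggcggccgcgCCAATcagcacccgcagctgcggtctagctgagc
Prmt1: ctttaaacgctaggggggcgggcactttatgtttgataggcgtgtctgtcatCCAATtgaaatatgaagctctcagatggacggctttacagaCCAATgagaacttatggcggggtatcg
Prmt5: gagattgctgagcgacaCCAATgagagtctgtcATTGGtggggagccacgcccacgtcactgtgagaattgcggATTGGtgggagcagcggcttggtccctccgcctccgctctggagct
Within these 120 bases Prmt5 has 3 boxes and each of the others has 2. In Prmt1 they begin 68 and 27 bases before the start, in Setd8 75 and 34, and in Suv39h1 120 and 74. These 4 were picked for their boxes, and the whole set is less one-sided: over the 250 bases before the start, the box was in 5 of 9 rising genes with a listed promoter (55.6%), 5 of 12 falling genes (41.7%) and 14 of 27 genes that were not called (51.9%). It was in 48.0% of the 50 enzyme genes that matched and in 34.5% of 27025 genes with a listed promoter. Those 27025 genes were not filtered by expression, whereas most of the 50 passed the filter on low counts, so the 2 shares are not like for like. For some genes of the set, Hdac4 and Setd5 among them, the listed promoter lies inside the gene and not at its outer start. A match is a run of letters and was not tested as a site.

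Other motifs searched in the same 250 bases on both strands were rarer. The E2F motif (TTTCCCGC, TTTCGCGC, TTTGCCGC or TTTGGCGC) was found in 0 of 9 rising genes, 0 of 12 falling genes and 3 of the 50 enzyme genes, against 1.92% of the 27025 unfiltered genes. The E-box CACGTG was found in 1 of 9 rising and 2 of 12 falling genes, in 10.0% of the 50 and in 6.04% of the 27025.

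The remaining Setd genes include 3 that fell. Setd1b, a methyltransferase of H3 lysine 4 in a COMPASS complex (chromosome 5, 123142040 to 123168630), had 224, 212 and 209 CPM in Tn, against 76.7, 56.8 and 52.6 CPM in Teff1. It was 3.46-fold lower (log2 -1.79 ± 0.28, SE; edgeR adjusted p = 0.000389), with a wide gap between the states. The paralog Setd1a was not called: 53.6, 50.3 and 50.4 CPM in Tn lay within the range of 49.9, 49.5 and 60.6 CPM in Teff1 (log2 0.05 ± 0.16, SE; edgeR adjusted p = 0.805). Setd2, which trimethylates H3 lysine 36 (chromosome 9, 110532500 to 110618633), went from 266, 216 and 201 CPM to 171, 136 and 118 CPM, 1.61-fold lower (log2 -0.68 ± 0.18, SE; edgeR adjusted p = 0.00874). Setd4 was 1.68-fold lower, at 27.9 ± 3.22 CPM in Tn, against 16.6 ± 1.48 CPM in Teff1 (SD, n = 3; edgeR adjusted p = 0.00347).

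Among Setd genes that were not called, Setd7 had 184 ± 16.6 CPM in Tn, against 127 ± 18.3 CPM in Teff1 (SD, n = 3, edgeR adjusted p = 0.13). The states did not overlap. A fit with the replicate number as a block called Setd7 lower, but replicate numbers did not pair Tn with Teff1 libraries. Setd3, a methyltransferase of actin histidine, had 99.2 ± 4.34 and 118 ± 8.93 CPM (edgeR adjusted p = 0.104). Setd5 and Setd6 had log2 fold changes of -0.06 and 0.09. Setd6 overlaps Cnot1 over 2577 bases, so its level is uncertain.

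Among the deacetylases, class I enzymes are nuclear and work in large corepressor complexes. Of the 4 Hdac genes of this class 3 rose by modest amounts, where 24.5% of all genes were called higher. Hdac1 (chromosome 4, 129516104 to 129542646) had 138, 143 and 163 CPM in Tn, against 189, 186 and 248 CPM in Teff1, 1.4-fold higher (log2 0.48 ± 0.14, SE; edgeR adjusted p = 0.0159). Hdac3 went from 68.1, 59.5 and 69.4 CPM to 81.9, 90.2 and 109 CPM (log2 0.51 ± 0.15, SE; edgeR adjusted p = 0.0144). Hdac2 went from 73.8, 89.1 and 72.3 CPM to 91.5, 101 and 132 CPM (log2 0.47 ± 0.17, SE; edgeR adjusted p = 0.0436). The states did not overlap for any of the 3, but the gaps are narrow, and under upper-quartile scaling, which moves the median of all genes by -0.14 in this comparison, none of the 3 was called. Without Teff1 replicate 3 the log2 fold changes of Hdac1, Hdac3 and Hdac2 were 0.35, 0.41 and 0.31, and none was called. Hdac1 also lost its call without Tn replicate 1 or 2, and Hdac3 without Tn replicate 2. Hdac2 also lost its call without Tn replicate 1, Tn replicate 3 or Teff1 replicate 2, and with the replicate block. Hdac8, the fourth class I gene, overlapped between states (log2 0.27 ± 0.32, SE; edgeR adjusted p = 0.51).

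The class IIa enzymes are corepressors that move between nucleus and cytoplasm. Of their 4 genes 3 fell, where 24.5% of all genes were called lower. These include Hdac9, described below, which had 2 counts over the Teff1 libraries. No difference between classes was tested. Hdac4 (chromosome 1, 91928779 to 92195702) had 86.8, 90.1 and 76.9 CPM in Tn, against 58.7, 49 and 28.7 CPM in Teff1 (log2 -0.9 ± 0.28, SE; edgeR adjusted p = 0.0211). Hdac5 (chromosome 11, 102195747 to 102230172) went from 92.9, 80.7 and 83.9 CPM to 56.6, 66.5 and 48.4 CPM (log2 -0.59 ± 0.17, SE; edgeR adjusted p = 0.0124). Both lost their call without Teff1 replicate 3, at log2 -0.64 and -0.46, and Hdac4 also without Tn replicate 1 or 2. With no filter on low counts Hdac5 was not called (log2 -0.49; edgeR adjusted p = 0.0577). Hdac7, the class IIa gene known for its role in thymocytes and T cells, had 449, 472 and 489 CPM in Tn, against 440, 554 and 452 CPM in Teff1, with overlapping states (log2 0.04 ± 0.18, SE; edgeR adjusted p = 0.879).

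Hdac9 (chromosome 12, 34047580 to 34917095) had 6.83, 1.91 and 8.33 CPM in Tn, from 286 counts, and 2 counts in all 3 Teff1 libraries. The ratio was 173-fold lower, with a 95% counting interval of 47.5 to 1440 (edgeR adjusted p = 0.000847). Within Tn, Hdac9 was lowest in replicate 2, the library with the lowest B cell sum (44.6 CPM, against 554 and 1110 CPM), and the part of other cells in the Tn level was not tested. Hdac11, the class IV gene, was near the limit of detection, with 77 counts over Tn and 8 over Teff1, and was called lower (log2 -3.41 ± 0.99, SE; edgeR adjusted p = 0.0137). Of the class IIb genes, Hdac6, a deacetylase of tubulin, had 16.8 ± 2.45 CPM in Tn, against 22.5 ± 1.62 CPM in Teff1 (SD, n = 3; edgeR adjusted p = 0.057), and Hdac10 overlapped between states (edgeR adjusted p = 0.33).

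**Figure D2:**
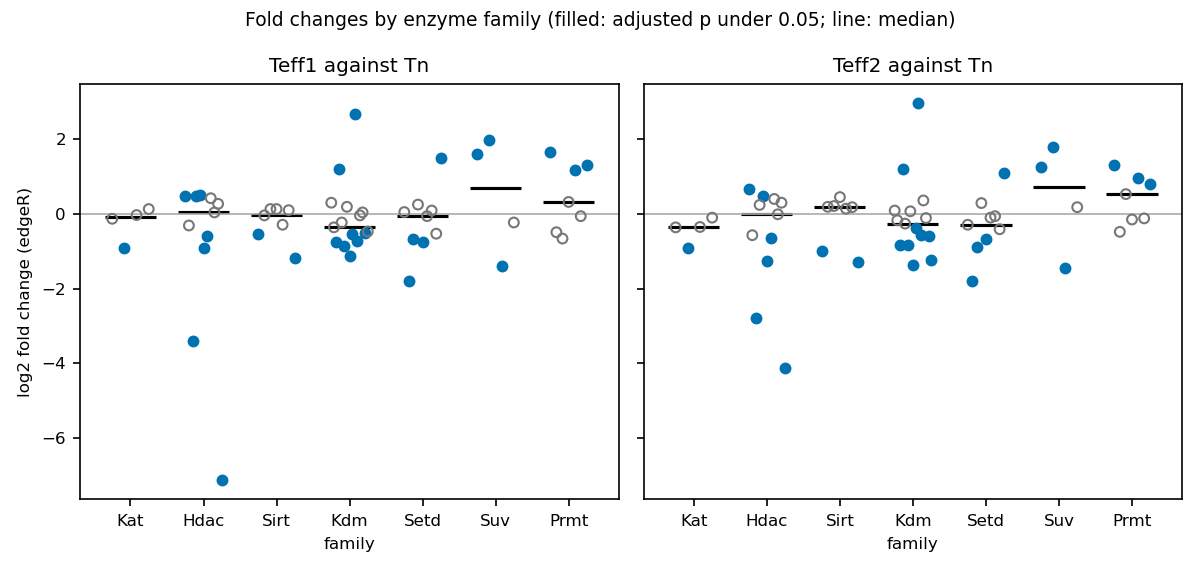
Log2 fold change of each tested enzyme gene by family for Teff1 against Tn (left) and Teff2 against Tn (right); filled points have a Benjamini-Hochberg adjusted p under 0.05 and bars are family medians. Prmt and Suv medians lie above 0 and Kdm medians below in both panels; the lowest point, Hdac9, rests on 2 counts in Teff1, so its height depends on the fit's prior count.

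Sirtuins need NAD and act in different parts of the cell. Both that fell are nuclear. Sirt7, which sits in the nucleolus (chromosome 11, 120618371 to 120625014), had 201, 204 and 220 CPM in Tn, against 101, 93.5 and 80.2 CPM in Teff1, 2.27-fold lower (log2 -1.19 ± 0.17, SE; edgeR adjusted p = 0.00024). Sirt1 (chromosome 10, 63319005 to 63339035) went from 70.7, 64.2 and 59 CPM to 49, 42.1 and 42.1 CPM, 1.46-fold lower (log2 -0.54 ± 0.14, SE; edgeR adjusted p = 0.00684). The states did not overlap for either, but with no filter on low counts Sirt1 was not called (log2 -0.44; edgeR adjusted p = 0.0676). Sirt6, the third nuclear sirtuin, overlapped between states (log2 0.1 ± 0.2, SE; edgeR adjusted p = 0.709), as did cytoplasmic Sirt2 (log2 -0.04) and mitochondrial Sirt3, Sirt4 and Sirt5 (log2 0.13, 0.13 and -0.29).

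Of the 4 tested acetyltransferases, Kat2b moved. Kat2b encodes PCAF (chromosome 17, 53566774 to 53672721) and had 78.5, 64.4 and 63.6 CPM in Tn, against 48.4, 35 and 26.9 CPM in Teff1, 1.87-fold lower (log2 -0.9 ± 0.2, SE; edgeR adjusted p = 0.00349). Its paralog Kat2a, which encodes GCN5 of the SAGA and ATAC complexes, had 84.7, 110 and 93.8 CPM in Tn, against 55.9, 101 and 106 CPM in Teff1, and these overlapped (log2 -0.13 ± 0.26, SE; edgeR adjusted p = 0.692). Kat5, the TIP60 enzyme, and Kat8, the MOF enzyme, had log2 fold changes of -0.03 and 0.13 and overlapped as well.

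Demethylases are the largest family, and of the 15 tested genes 6 fell and 2 rose, where 24.5% of all genes were called in each direction. Kdm4b, which acts on H3 lysines 9 and 36 (chromosome 17, 56325970 to 56403774), had 109, 115 and 102 CPM in Tn, against 59.2, 45.7 and 42.8 CPM in Teff1, 2.21-fold lower (log2 -1.14 ± 0.25, SE; edgeR adjusted p = 0.00273). Kdm3b, an H3 lysine 9 demethylase, went from 214, 199 and 211 CPM to 129, 120 and 93.1 CPM (log2 -0.86 ± 0.17, SE; edgeR adjusted p = 0.00147). Kdm2a, which binds CpG islands and demethylates H3 lysine 36 (chromosome 19, 4316144 to 4398721), went from 209, 225 and 240 CPM to 149, 128 and 119 CPM (log2 -0.76 ± 0.19, SE; edgeR adjusted p = 0.00594). For each of these genes the lowest Tn library was above the highest Teff1 library. Kdm5a, an H3 lysine 4 demethylase (chromosome 6, 120364099 to 120444574), had 203 ± 9.84 CPM in Tn, against 123 ± 27.2 CPM in Teff1 (SD, n = 3; log2 -0.72, edgeR adjusted p = 0.017). Its call was lost without Tn replicate 1, Teff1 replicate 2 or Teff1 replicate 3. Kdm4c and the X-linked H3 lysine 27 demethylase Kdm6a completed the falls, at log2 -0.53 and -0.52. With no filter on low counts neither Kdm4c nor Kdm6a was called, and 4 Kdm genes were called lower.

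Kdm2b, the CpG island demethylase that brings a Polycomb complex to its targets (chromosome 5, 122870664 to 122989270), went against its paralog Kdm2a. It had 93.7, 48.3 and 58.4 CPM in Tn, against 210, 105 and 140 CPM in Teff1, 2.28-fold higher (log2 1.19 ± 0.27, SE; edgeR adjusted p = 0.00342). Replicate 1 was the highest library of both states. Kdm4d, an H3 lysine 9 demethylase, rose from 0.265, 0.409 and 0.215 CPM to 2.76, 1.33 and 1.64 CPM, on 14 counts in all in Tn. The other 7 tested Kdm genes were not called. Kdm6b, which encodes the H3 lysine 27 demethylase JMJD3, had uneven libraries within a state, with 326, 147 and 144 CPM in Tn, against 243, 109 and 92.9 CPM in Teff1; replicate 1 was the highest in both (log2 -0.47 ± 0.42, SE; edgeR adjusted p = 0.365). It was lower in Teff1 at each of the 3 replicate numbers, and the replicate block called it lower. Same-number libraries of Tn and Teff1 hardly deviated together (r across genes 0.14, 0.13 and 0), so the block is no separate support for a fall. Kdm1a, which encodes LSD1, had 98.6 ± 3.94 and 121 ± 12.9 CPM (SD, n = 3; edgeR adjusted p = 0.117). Since Kdm1a overlaps Luzp1 over 4193 bases and Kdm5a overlaps Ccdc77 over 271, their levels may include reads of these neighbours. Kdm1b, Kdm3a, Kdm4a, Kdm5b and Kdm5c had log2 fold changes between -0.36 and 0.19.

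**Figure D3:**
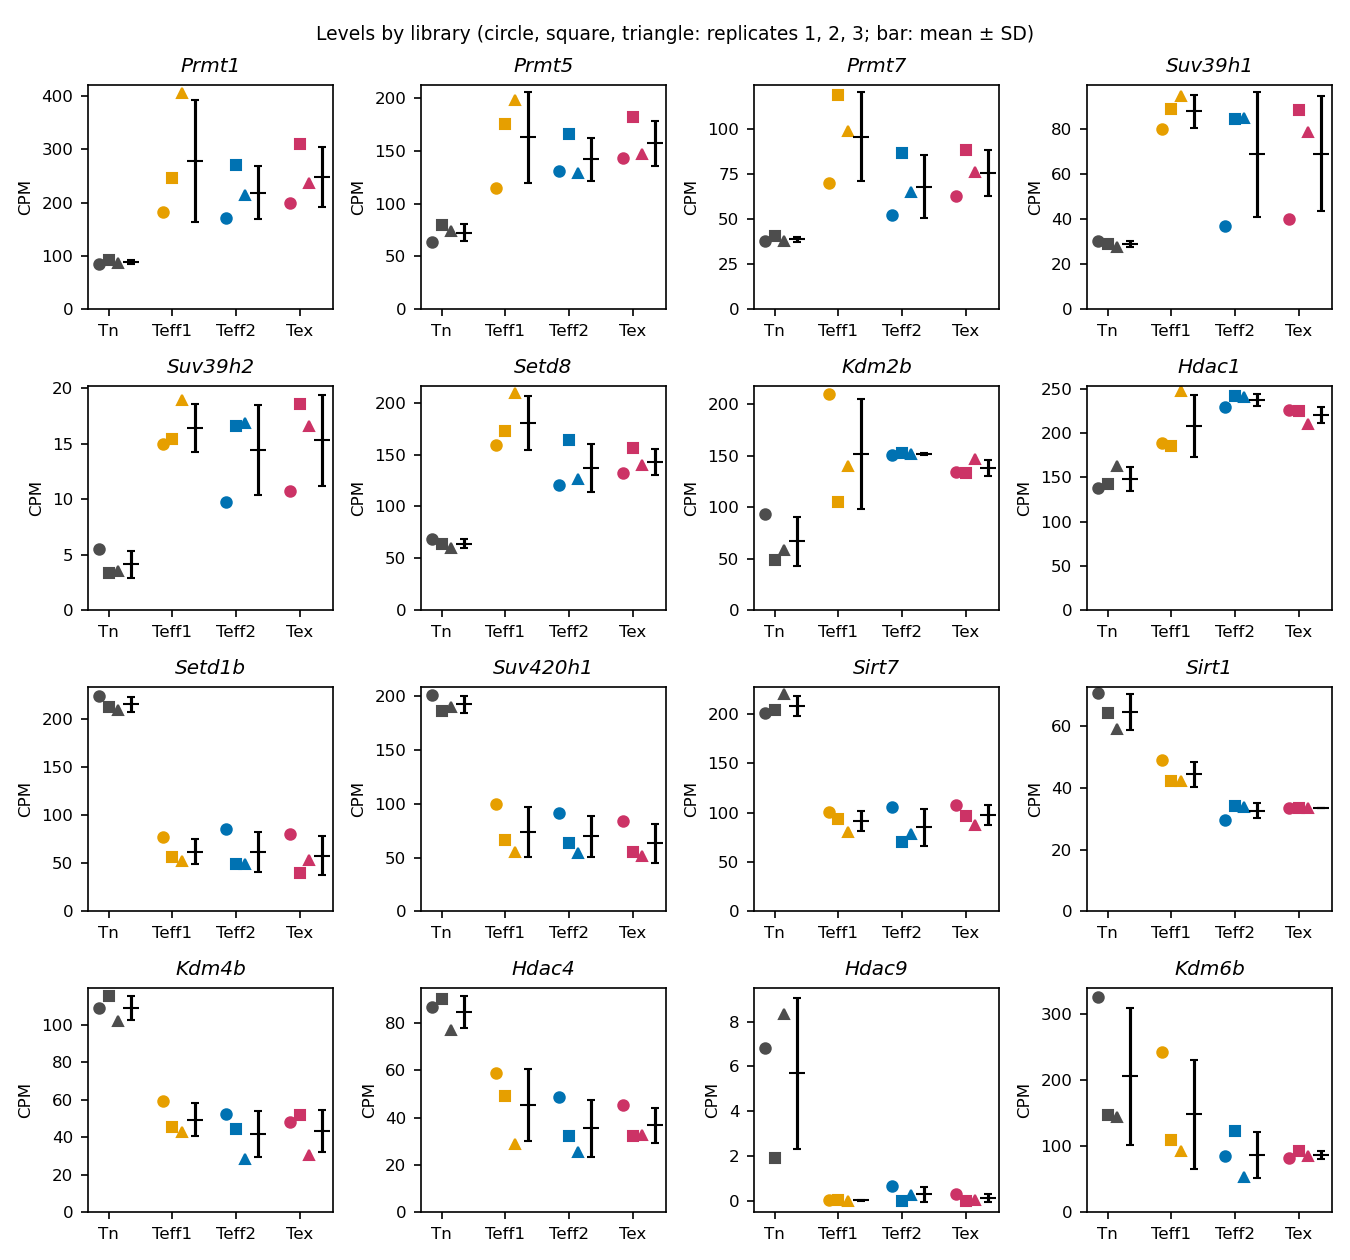
CPM of 16 enzyme genes by library in Tn, Teff1, Teff2 and Tex (points; circle, square and triangle are replicates 1, 2 and 3), with mean ± SD of 3 libraries. The Tn libraries of Prmt1, Setd8 and Suv39h1 lie below all activated libraries, those of Setd1b, Suv420h1 and Sirt7 above, and Kdm6b replicate 1 stands out in Tn and Teff1.

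At day 5 the picture against naive cells was close to that at day 2. In Teff2, 10 of 57 enzyme genes were higher and 18 lower than in Tn (edgeR adjusted p under 0.05), where 25.6% and 23.3% of all genes were called, 48.9% in all. For 12 genes the Teff2 libraries lay entirely above Tn and for 21 entirely below, against 29.8% and 29.6% of all genes. The 2 comparisons share the Tn libraries and are not independent: 10 genes were called higher in both and 17 lower in both. In this fit without the block, Hdac2 was called at day 2 and not at day 5 (day 5 log2 0.24 ± 0.17, SE; edgeR adjusted p = 0.272) and Kdm6b at day 5 and not at day 2; the difference between days was not called for either. By family the counts of rises and falls were 3 and 0 for Prmt, 2 and 1 for Suv, 1 and 3 for Setd, 2 and 4 for Hdac, 0 and 2 for Sirt, 0 and 1 for Kat and 2 and 7 for Kdm.

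Named genes at day 5 had the following sizes. Prmt1, with 172, 270 and 215 CPM in Teff2, was 2.48-fold above Tn (log2 1.31 ± 0.28, SE; edgeR adjusted p = 0.00244). Prmt5 and Prmt7, with 142 ± 20.7 and 68 ± 17.5 CPM (SD, n = 3), were 1.95-fold and 1.75-fold above Tn (edgeR adjusted p = 0.00255 and 0.0115). Setd8, at 121, 164 and 126 CPM, was 2.14-fold above (log2 1.1 ± 0.16, SE; edgeR adjusted p = 0.000259). All libraries of these 4 genes remained above all Tn libraries. Suv39h1 and Suv39h2 were 2.38-fold and 3.49-fold above Tn (edgeR adjusted p = 0.00758 and 0.000638). Kdm2b, at 151, 153 and 152 CPM, was 2.28-fold above Tn (edgeR adjusted p = 0.00331). Kdm4d, at 3.11, 1.35 and 2.47 CPM, was 7.75-fold above Tn (log2 2.96 ± 0.5, SE; edgeR adjusted p = 0.000576). Hdac1, at 229, 242 and 241 CPM, was 1.6-fold above Tn (log2 0.68 ± 0.14, SE; edgeR adjusted p = 0.0025), and Hdac3 1.38-fold (edgeR adjusted p = 0.022), the latter not called under upper-quartile scaling, with the replicate block or without Tn replicate 2 or Teff2 replicate 3.

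Among the genes that were lower at day 5, Setd1b had 85.7, 49.5 and 49.6 CPM and was 3.49-fold below Tn (log2 -1.8 ± 0.28, SE; edgeR adjusted p = 0.000367). Suv420h1, at 91.2, 63.3 and 54.4 CPM, was 2.76-fold lower (log2 -1.46 ± 0.27, SE; edgeR adjusted p = 0.000947). Sirt7, at 106, 70.6 and 78.6 CPM, was 2.45-fold lower (log2 -1.29 ± 0.17, SE; edgeR adjusted p = 0.00013). In all 3 genes replicate 1 was the highest of the Teff2 libraries, yet still below every Tn library. Sirt1, at 29.7, 34.1 and 33.9 CPM, was 1.98-fold lower (log2 -0.99 ± 0.14, SE; edgeR adjusted p = 0.000182). Kdm4b was 2.6-fold lower (edgeR adjusted p = 0.000884), Hdac4 2.38-fold (edgeR adjusted p = 0.00372) and Kat2b 1.89-fold (edgeR adjusted p = 0.00309). Setd2, Kdm2a, Kdm3b, Setd4 and Hdac5 were 1.57-fold to 1.86-fold lower (edgeR adjusted p between 0.00193 and 0.00721). Hdac9 had 18 counts over Teff2, at 0.663, 0 and 0.269 CPM (log2 -4.12 ± 0.99, SE; edgeR adjusted p = 0.00496). Kdm6b, at 85.2, 123 and 53.1 CPM, was 2.36-fold lower (log2 -1.24 ± 0.42, SE; edgeR adjusted p = 0.0288); without Tn replicate 1, the high library, the log2 fold change was -0.74 and the call was lost, as it was without Teff2 replicate 1 or 3.

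Replicate numbers paired the libraries of Tex and Teff2 only, so against Tn the block is an alternative fit and no separate support for a call. With the replicate number as a block, 10 genes were higher and 19 lower in Teff1 (26.1% and 25.6% of all genes, 51.7% in all), and 9 and 17 in Teff2 (23.2% and 22.4%, 45.5% in all). In that fit 0 genes differed between Teff2 and Teff1 (1.9% of all genes higher and 0.223% lower, 2.13% in all). Against the fit without the block, Hdac2 lost its call in Teff1 (block log2 0.5 ± 0.19, SE; edgeR adjusted p = 0.063). Kdm6b and Setd7 gained one as lower in Teff1 (block log2 -0.45 ± 0.15 and -0.49 ± 0.17, SE; edgeR adjusted p = 0.0424 for each). Hdac3 and Kdm4c lost theirs in Teff2 (edgeR adjusted p = 0.0573 and 0.116). For all 28 genes called in each comparison without the block, the Tn libraries and those of the activated state did not overlap. These genes were chosen by the call on the same libraries, so this is no separate support for the calls. Without Tn replicates 1 and 3, which leaves 1 Tn library and assumes that it varies like the others, 5 enzyme genes were called higher and 6 lower in Teff1, and 4 and 7 in Teff2. Those called at both days in that setting were Kdm2b, Setd8 and Suv39h2 (higher) and Kdm4b, Setd1b, Sirt7 and Suv420h1 (lower). Over all genes 9.96% were then called higher and 10% lower in Teff1, and 11.3% and 10.8% in Teff2.

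Between day 2 and day 5, Teff2 against Teff1, 0 of 57 enzyme genes were called in either direction by edgeR, where 0.558% of all genes were called higher and 0.112% lower, 0.67% in all. States did not overlap for 2 genes that were higher and 3 that were lower, against 8.39% and 6.19% of all genes. At an unadjusted p under 0.05 there were 3 higher and 4 lower. DESeq2 called 2 lower, Prmt3 and Sirt1. Prmt3 had 69.6, 59.2 and 56.3 CPM in Teff1 and 39.9, 49.7 and 43.8 CPM in Teff2 (DESeq2 log2 -0.49 ± 0.15, SE, adjusted p = 0.0475; edgeR adjusted p = 0.205). Sirt1 had 49, 42.1 and 42.1 CPM in Teff1 and 29.7 to 34.1 CPM in Teff2 (DESeq2 log2 -0.46 ± 0.14, SE, adjusted p = 0.0293; edgeR adjusted p = 0.192). Neither gene overlapped between the 2 days. Setd8 and Prmt7 had lower means at day 5, 137 ± 23.3 against 180 ± 26 CPM and 68 ± 17.5 against 95.8 ± 24.5 CPM (SD, n = 3), with overlapping libraries and edgeR adjusted p = 0.342 and 0.418.

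The comparison of Tex with Teff2 asks what differs between TIM-3+ and TIM-3- cells of day 5. Libraries of the same replicate number deviated together (r across genes 0.85, 0.78 and 0.75, at most 0.12 for unequal numbers), so they were also compared as 3 pairs. No enzyme gene differed by the test: 0 of 57 were called over all libraries, with 0 at an unadjusted p under 0.05, and DESeq2 called 0 as well. Of all genes 0.00698% were called higher and 0 lower. Within pairs 0 of 55 tested enzyme genes were called, where 0.962% of all genes were called higher and 0.725% lower, 1.69% in all, and 2 higher and 5 lower had an unadjusted p under 0.05.

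The pairs give an interval for each difference. For all 55 genes the 95% interval of the fold change lay inside 2-fold either way, and for 54 inside 1.5-fold; the exception was the low-count gene Kdm4d, with a log2 interval of -0.82 to 0.58. Hdac9 and Hdac11 did not pass the filter on low counts in this fit and have no such interval. Over all libraries their log2 fold changes were -1.3 ± 1.15 and -0.56 ± 1.08 (SE), and neither was called. Among the 55 genes the largest difference was in Kdm1b, which encodes LSD2. This gene overlaps Dek over 513 bases, so its level may include reads of Dek. Kdm1b had 36, 34.5 and 42.4 CPM in Teff2 and 31.8, 28.2 and 31.5 CPM in Tex, lower in 3 of 3 pairs (log2 -0.31 ± 0.09, SE; 95% interval -0.52 to -0.1; edgeR adjusted p = 0.15). Kat2b had 35.6, 33.8 and 39.7 CPM in Teff2 and 28.8, 28.7 and 33.7 CPM in Tex (log2 -0.27, interval -0.46 to -0.07; edgeR adjusted p = 0.183). Sirt6 was higher in Tex in 3 of 3 pairs, with 46.3, 31.7 and 29.2 CPM in Teff2 and 49.5, 41 and 36.7 CPM in Tex (log2 0.26, interval 0.05 to 0.47; edgeR adjusted p = 0.217). For 4 genes (Hdac1, Kat2b, Kdm1b and Kdm2b) all Tex libraries lay below all Teff2 libraries, and for 0 above, against 2.35% and 2.46% of all genes. In all 3 pairs 11 of 55 genes were higher in Tex and 14 lower, against 22% and 18.6% of all genes.

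**Figure D4:**
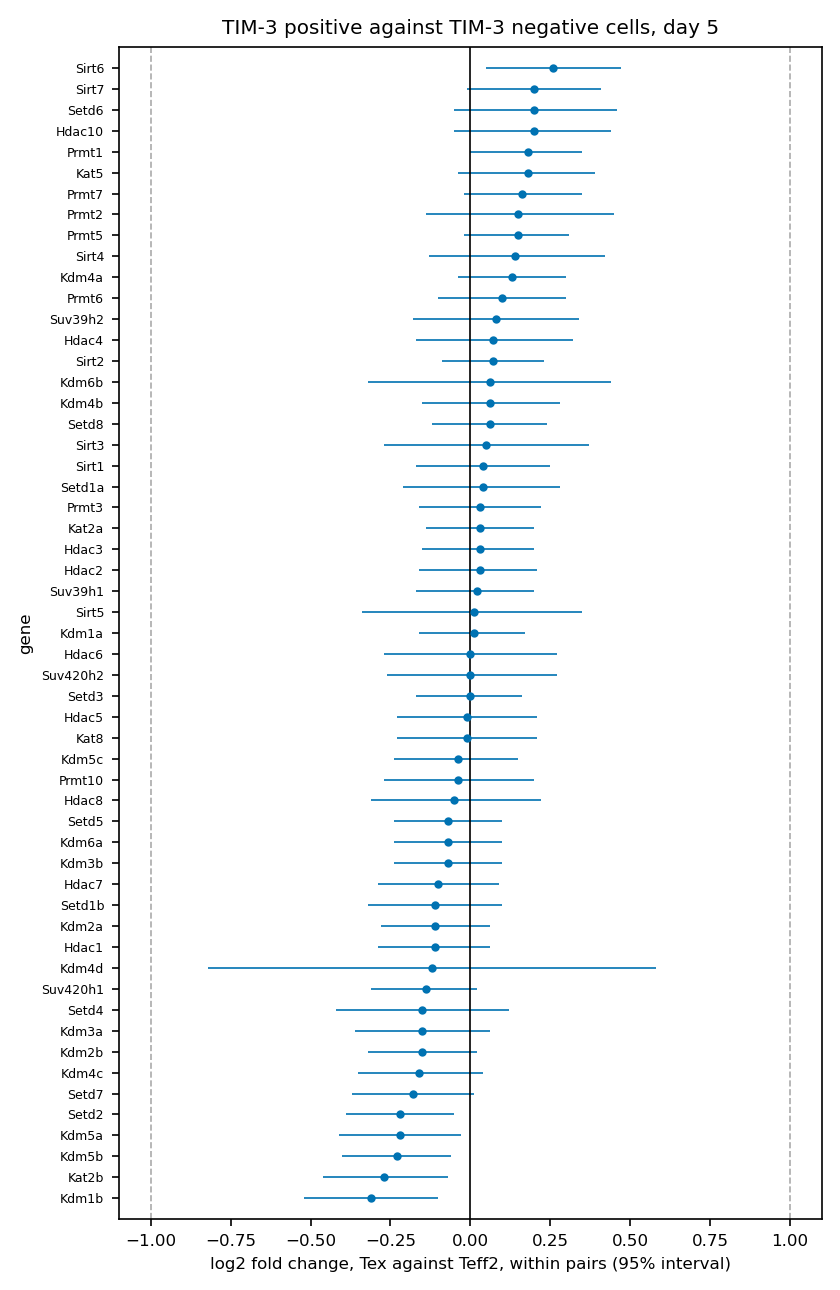
Log2 fold change of 55 enzyme genes between Tex and Teff2, fitted within the 3 replicate pairs, with 95% intervals (horizontal bars) and dashed lines at 2-fold. All intervals lie between the dashed lines, and Kdm1b at -0.31 is the point farthest from 0.

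Replicate 1 of the day 5 states was low in cell cycle genes. Few enzyme genes differed in it by more than 1 on the log2 scale from the mean of replicates 2 and 3. These were 3 of 57 in Teff2 and 2 of 57 in Tex, against 1986 and 1732 of 14332 genes. They were Suv39h1 and Prmt2 in both states, and Sirt5 in Teff2 (13.9 CPM, against 5.55 and 7.63 CPM). In Teff2 and Tex replicate 1, where the G2 and M phase sum was 1150 and 1480 CPM, Suv39h1 had 36.9 and 40 CPM, against 78.9 to 88.4 CPM in the other day 5 libraries and 27.6 to 30.2 CPM in Tn. Suv39h2 had 9.75 and 10.7 CPM in those libraries and 16.6 to 18.6 CPM in the others. Prmt2 was the reverse, at 32.5 and 34.5 CPM in replicate 1 and 10.2 to 17.4 CPM in the others. Setd8 differed less, at 121 and 132 CPM against 126 to 164 CPM. The G2 and M list itself rose in Teff1 in all 19 genes, and the S phase list in all 20. Suv39h1 was 3.04-fold above Tn in Teff1, where replicate 1 had a G2 and M sum of 4430 CPM beside 3860 and 4290 CPM. Without replicate 1 of the activated states 14 enzyme genes were called higher and 18 lower in Teff1, where 28.4% and 27.8% of all genes were called in that setting. The counts were 12 and 18 in Teff2, where the shares were 30.3% and 27.1%. The part of cell cycling in these values was not tested.

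**Figure D5:**
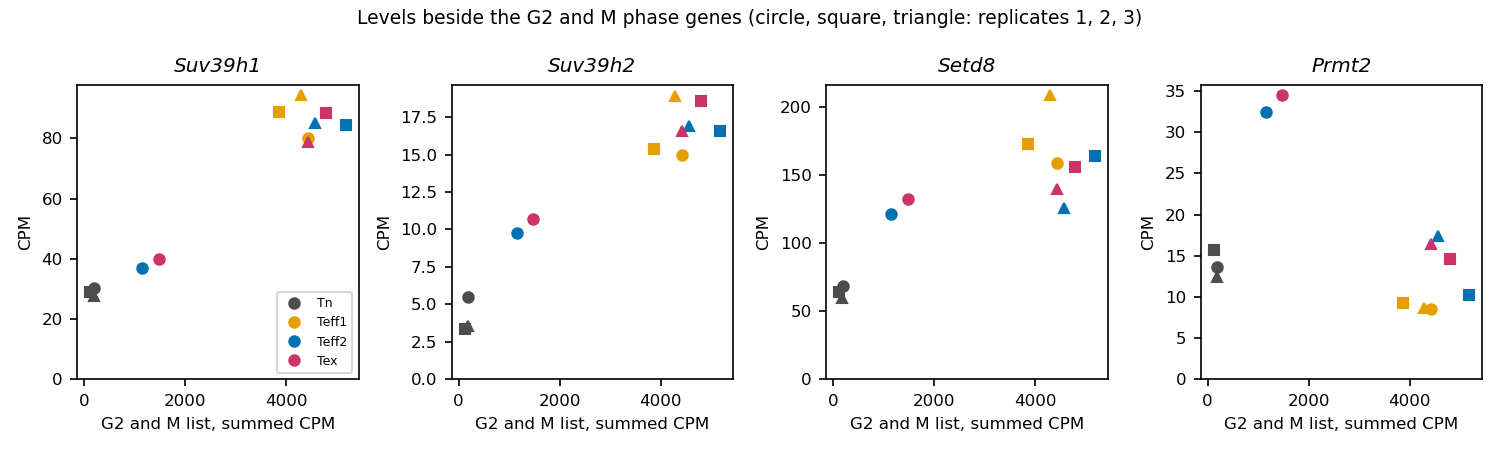
CPM of Suv39h1, Suv39h2, Setd8 and Prmt2 in each library against the summed CPM of 19 G2 and M phase genes; colour is the state and shape the replicate. Replicate 1 of Teff2 and Tex lies apart from the other activated libraries, near Tn for Suv39h1 and above all others for Prmt2.

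The median spread between libraries was smaller for these genes than over all tested genes in each state. Genes were not matched by level, on which this measure depends. The median coefficient of variation over the tested enzyme genes was 9.01% for naive libraries, against 15% over all tested genes. For Teff1 it was 16% (all genes 22%), for Teff2 18.2% (25.7%) and for Tex 12.1% (23.3%).

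Of 36 tested genes of a list of other modifiers, 11 were higher and 13 lower in Teff1 than in Tn, with a median log2 fold change of -0.28, where 24.5% of all genes were called in each direction. Ezh2, the H3 lysine 27 methyltransferase of Polycomb, went from 30.9, 24.1 and 26 CPM in Tn to 275, 272 and 264 CPM in Teff1 (log2 3.32 ± 0.23, SE; edgeR adjusted p = 3.82e-06). Whsc1, the H3 lysine 36 dimethyltransferase now called Nsd2, went from 34.7, 25.4 and 33.4 CPM to 403, 321 and 272 CPM (log2 3.41 ± 0.28, SE; edgeR adjusted p = 9.36e-06). Hat1, which acetylates newly made H4, rose 5.98-fold (log2 2.58 ± 0.33, SE; edgeR adjusted p = 0.000108). In the other direction, Mll3, the H3 lysine 4 methyltransferase now called Kmt2c, fell from 505 ± 33.9 to 146 ± 75.9 CPM (SD, n = 3; edgeR adjusted p = 0.0112). Ezh1, the paralog of Ezh2, fell from 103, 108 and 118 CPM to 49, 39.3 and 30.4 CPM (log2 -1.47 ± 0.31, SE; edgeR adjusted p = 0.00235), and Prdm9 fell by 1.52 on the log2 scale (edgeR adjusted p = 0.0015). In Teff2 the counts were 9 higher and 16 lower, where 25.6% and 23.3% of all genes were called.

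Of 67 tested genes for subunits that work with these enzymes, 19 were higher and 15 lower in Teff1 (median log2 0.01), near the 24.5% of all genes in each direction. In Teff2 the counts were 15 and 21, against 25.6% and 23.3% of all genes. Sap30, a subunit of the Sin3 complex that holds Hdac1 and Hdac2, went from 8.95, 5.72 and 7.2 CPM to 37.2, 30.8 and 54.4 CPM (log2 2.48 ± 0.41, SE; edgeR adjusted p = 0.000557). Cbx5, which encodes HP1 alpha, the reader of H3 lysine 9 methylation laid by Suv39h enzymes, rose 4.59-fold (log2 2.2 ± 0.26, SE; edgeR adjusted p = 7.22e-05). Tada2a, a subunit that works with Kat2a and Kat2b in ATAC, rose 4.27-fold (edgeR adjusted p = 0.0003). The partners of Prmt5, Wdr77 and Clns1a, rose 1.47-fold and 2.41-fold (edgeR adjusted p = 0.0474 and 0.000613); they were named after their values were seen. Falling partners were Phf21a of the LSD1 and CoREST complex (log2 -1.24, edgeR adjusted p = 0.005), Arid4a of the Sin3 complex (log2 -1.21, edgeR adjusted p = 0.00158) and Gps2 of the NCoR complex with Hdac3 (log2 -1.1, edgeR adjusted p = 0.000138).

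The 5 family genes under older symbols held 0 rises and 3 falls in Teff1, where 24.5% of all genes were called in each direction. With so few genes no trend was tested. Jhdm1d, now Kdm7a, went from 217, 193 and 177 CPM in Tn to 69.7, 74.6 and 42.6 CPM (log2 -1.65 ± 0.2, SE; edgeR adjusted p = 8.01e-05). Myst3 and Myst4, the acetyltransferases now called Kat6a and Kat6b, fell 2.07-fold and 1.97-fold (edgeR adjusted p = 0.00209 and 0.0059). Myst2, now Kat7, and Jmjd5, now Kdm8, were not called (edgeR adjusted p = 0.622 and 0.197).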

How the data were processed

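The authors deposited a matrix of raw read counts per gene for 12 RNA-seq libraries. Per the submitters' processing notes the assembly is mm10 and HISAT2, HTSeq and DESeq2 are among the tools. Their versions and strand use are not given in the sources used here. A deposited matrix of normalized values was not used. Tests used edgeR 4.0.16 (R 4.3.3): its quasi-likelihood fit, TMM factors and its filter by expression, on all 12 libraries with state as the term, and Benjamini-Hochberg adjusted over 14332 genes; the SE is the log2 fold change divided by the root of F. Code was tested on simulated data. DESeq2 1.42.0, other scalings, no filter, 2 states only, a replicate block and libraries left out were alternatives. Replicate numbers paired the libraries of Tex and Teff2 only, judged by r of deviations from state means (Teff1 and Tn 0.14, 0.13 and 0; Teff2 and Teff1 0.51, 0.24 and 0.03, with 0.51 for an unequal pair; Teff2 and Tn 0.01, 0.08 and 0.08). Named genes are up to 4 called genes a family, comparison and direction, largest first, with at least 2 CPM in the higher state, and up to 3 of each other list. The members and lists were chosen with earlier results of these data known. Coordinates and promoters are RefSeq's (GRCm38.p6); 50 of 60 genes matched a promoter that is used. Total counts were 14.7 to 21.2 M a library, so a gene at 0 counts allows up to 0.204 CPM.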

Additional observations from a re-analysis of the deposited data

How the results depend on the processing

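Counts of called genes for Teff1 against Tn (11 higher, 17 lower) and Teff2 against Tn (10 higher, 18 lower) stayed within 1.5 times under RLE and upper-quartile factors, DESeq2, no filter, 2 states only, the replicate block (10 and 19 for Teff1, 9 and 17 for Teff2) and without replicate 1 of the activated states. Leaving out 1 library gave 8 to 11 higher and 14 to 17 lower in Teff1, and 9 to 10 higher and 14 to 17 lower in Teff2. Shares of all genes called in these settings are not given, so these counts do not set the enzyme genes apart from genes at large. Without Tn replicates 1 and 3 the counts were 5 and 6 in Teff1 and 4 and 7 in Teff2, with fewer samples by construction. Teff2 against Teff1 had 0 calls in each setting except DESeq2 (2 lower; the cause was not tested), and Tex against Teff2 had 0 in all, leave-one-out included. Of 48 named fold changes none changed sign in the settings run. Besides the setting with 1 Tn library (26 lost), the most calls were lost without Teff1 replicate 3 (6 of 24), without Tn replicate 1 (5 of 48) and, with 4 of 48 each, without Tn replicate 2 and under upper-quartile factors. The latter shift the median of all genes by -0.14 and -0.11 against Tn and turn the Hdac median in Teff1 from 0.04 to -0.10. The replicate block lost the calls of Hdac2 in Teff1 and of Hdac3 and Kdm4c in Teff2 and gained Kdm6b and Setd7 in Teff1. With no filter Hdac5, Sirt1, Kdm4c and Kdm6a lost theirs in Teff1. In Teff2 that setting called 5 Kdm genes lower, against 7 with the filter, and 4 Prmt genes higher, against 3. Depth limits Hdac9, Hdac11, Kdm4d and Prmt8.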

Other observations

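Kdm5d is on the Y chromosome and was at 0 counts throughout. Other Y-linked genes looked up after that value was seen, Uty, Ddx3y and Eif2s3y, had 0, 1 and 1 counts over all 12 libraries, and Xist, the RNA of the inactive X chromosome, had 813 to 3280 CPM. The labels give no sex of the mice.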
